A study of Mus musculus with 48 samples.

Results

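The genes described here are 36 interferon-stimulated genes (ISGs), taken from the 24973 genes of the deposited table by their symbols. The list names the ISGs themselves and was not chosen by a threshold on a measured value, and each of the 36 symbols matched exactly 1 gene. Their RNA was measured in the 4 cell types of the mouse neurovascular unit after experimental stroke: microglia (MG), astrocytes (AC), pericytes (PC) and endothelial cells (EC). There were 48 libraries, 6 from the ipsilateral (ischemic) and 6 from the contralateral hemisphere for each cell type, and each library came from a pool of 3 to 4 brains. All mice were wild-type C57BL/6 males aged 12 to 15 weeks, and all groups shared the same operation, in which a filament closed the right middle cerebral artery for 1 h (transient middle cerebral artery occlusion, tMCAO) before 23 h of reperfusion. The control is therefore the other hemisphere of the same operated animals, and no sham or untreated brain was part of the comparison. Only animals with a clear neurological deficit were kept. Cells were sorted by surface markers: MG as CD45 low and CD11b positive, AC as ACSA-2 high, EC as VE-cadherin positive, and PC as positive for NG2 and PDGFRβ, with the last 3 negative for CD45.

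Interferons are secreted when a cell senses foreign or misplaced nucleic acid. Type I interferons bind the receptor IFNAR1/IFNAR2, whose kinases activate transcription factors, among them STAT2. STAT2 and IRF9 are subunits of the complex ISGF3, which binds the interferon-stimulated response element (ISRE) in front of ISGs and switches them on. The products sense nucleic acid, degrade or trap viral RNA, block membrane fusion and feed back on the pathway.

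The ISRE is built of repeats of the half-site GAAA. The letters GAAANNGAAA, or TTTCNNTTTC on the other strand, were searched in the 250 bases before the RefSeq start of each gene (build GRCm38.p6), where N is any base and overlapping matches were each counted. Of the 36 genes, 27 had a RefSeq promoter entry, and 9 of these 27 held at least 1 match, against 3.46% of all 27025 genes with an entry (2.98% of 32851 promoters). The 9 genes were *Bst2*, *Ifit1*, *Ifit3*, *Ifitm2*, *Isg15*, *Oas1a*, *Oas3*, *Rsad2* and *Stat2*. A shorter palindrome, TTCNNNGAA, the core of the interferon gamma activated site, was found in 5 of the 27 genes (*Bst2*, *Eif2ak2*, *Ifit2*, *Irf1* and *Oas1a*) and in 8.13% of all genes (7.02% of promoters). These are matches of letters, and binding was not measured. The promoters of 6 genes that the results below turn on are shown 5′ to 3′ on the strand of the gene, with matches of GAAANNGAAA or its other strand in capitals. *Isg15* (chr4:156200819-156201068, minus strand) held 3 overlapping matches, *Ifit1* (chr19:34640639-34640888, plus strand) and *Oas1a* (chr5:120907526-120907775, minus strand) held 2, and *Rsad2* (chr12:26456453-26456702, minus strand) and *Ifitm2* (chr7:140955962-140956211, minus strand) held 1. *Oasl1* (chr5:114922990-114923239, plus strand) held none in this window and is shown for contrast, since its RNA was among those higher in ipsilateral MG.
Ifit1: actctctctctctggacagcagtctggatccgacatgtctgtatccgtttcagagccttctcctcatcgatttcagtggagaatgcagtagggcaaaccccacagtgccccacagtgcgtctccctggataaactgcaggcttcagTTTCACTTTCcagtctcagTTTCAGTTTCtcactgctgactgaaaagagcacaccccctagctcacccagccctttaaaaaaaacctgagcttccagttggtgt
Isg15: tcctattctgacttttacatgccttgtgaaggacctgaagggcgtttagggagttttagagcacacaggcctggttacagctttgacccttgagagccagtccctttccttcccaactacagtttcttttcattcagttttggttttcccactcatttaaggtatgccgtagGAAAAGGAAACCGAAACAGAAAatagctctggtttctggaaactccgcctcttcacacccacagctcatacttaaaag
Oas1a: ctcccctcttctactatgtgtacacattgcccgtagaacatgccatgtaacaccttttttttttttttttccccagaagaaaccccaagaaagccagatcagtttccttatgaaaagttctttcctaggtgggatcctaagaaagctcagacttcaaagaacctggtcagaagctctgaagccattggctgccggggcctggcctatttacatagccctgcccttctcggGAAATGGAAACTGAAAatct
Rsad2: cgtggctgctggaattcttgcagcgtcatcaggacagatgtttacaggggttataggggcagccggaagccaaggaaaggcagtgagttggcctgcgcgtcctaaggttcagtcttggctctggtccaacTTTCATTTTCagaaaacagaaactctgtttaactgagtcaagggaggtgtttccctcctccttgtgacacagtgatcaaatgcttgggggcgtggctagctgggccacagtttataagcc
Ifitm2: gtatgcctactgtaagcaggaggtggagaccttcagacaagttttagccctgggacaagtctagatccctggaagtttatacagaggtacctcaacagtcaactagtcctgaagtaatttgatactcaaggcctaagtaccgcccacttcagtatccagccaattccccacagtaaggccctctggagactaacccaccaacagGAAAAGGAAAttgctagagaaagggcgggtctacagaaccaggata
Oasl1: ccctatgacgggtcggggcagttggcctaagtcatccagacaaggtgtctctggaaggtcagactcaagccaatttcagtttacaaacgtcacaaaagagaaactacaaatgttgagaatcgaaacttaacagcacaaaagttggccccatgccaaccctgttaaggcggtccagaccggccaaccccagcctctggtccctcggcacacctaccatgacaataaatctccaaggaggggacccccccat

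Several genes lie side by side. *Rsad2* (chr12:26442746-26456452) and *Cmpk2* (chr12:26469204-26479837) are neighbours on opposite strands, *Oasl2* (chr5:114896936-114912234) and *Oasl1* (chr5:114923240-114937915) follow each other, and *Ifitm2* (chr7:140954837-140955987), *Ifitm1* (chr7:140967221-140969825) and *Ifitm3* (chr7:141009586-141010770) form a cluster on chromosome 7 that also holds *Irf7* (chr7:141262706-141266481). *Ifitm10* (chr7:142326110-142373753) lies farther along the same chromosome. The authors left out reads that mapped to several places or overlapped several genes, so values of genes with near-identical copies (*Ifit3* with *Ifit3b*, *Oas1a*, *Ifi204*) are less certain, as are those of *Irf1*, *Irf9*, *Oasl1*, *Usp18*, *Dhx58*, *Rtp4*, *Eif2ak2* and *Ifi47*, whose deposited coordinates overlap another gene in a library type that does not mark strand.

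All values are normalized counts, that is, reads on a gene divided by a size factor for the library and rounded, as deposited. They summed to between 10549900 and 16942165 per library, and a value of 3 reads corresponded to at most 7.08 normalized counts. All 22 markers of the 4 cell types were higher in every library of their own cell type than in any library of another. RNA of 10 microglial markers was nevertheless found in the other cell types, mostly in replicates 1 to 4: as a share of the mean sum in MG of the same hemisphere it reached 15.5% in EC, 19% in PC and 7.68% in AC, but at most 0.259%, 0.164% and 0.471% in replicates 5 and 6. In AC, 4 oligodendrocyte markers summed to medians of 166158 in contralateral and 149448 in ipsilateral libraries. The 4 astrocyte markers summed to medians of 85602 and 87373 there. In libraries of the other cell types the oligodendrocyte sum was at most 28068. The part of oligodendrocyte RNA in the AC values was not tested. The hemispheres with the same replicate number came from the same animals. In 2 libraries short transcripts stood apart: genes with under 1000 exon bases had a median log2 difference of 2.11 from the other libraries of the group in contralateral EC replicate 2 and of 1.76 in ipsilateral MG replicate 2, while genes over 5000 bases differed by -0.51 and -0.38. Of the 36 ISGs, *Isg15*, *Bst2*, *Ifitm2* and *Ifitm3* have under 1000 exon bases. For the 12 ipsilateral libraries of PC and MG the sample titles and the column names give opposite cell types. The column names were used, and the marker check above holds for them.

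**Figure D1:**
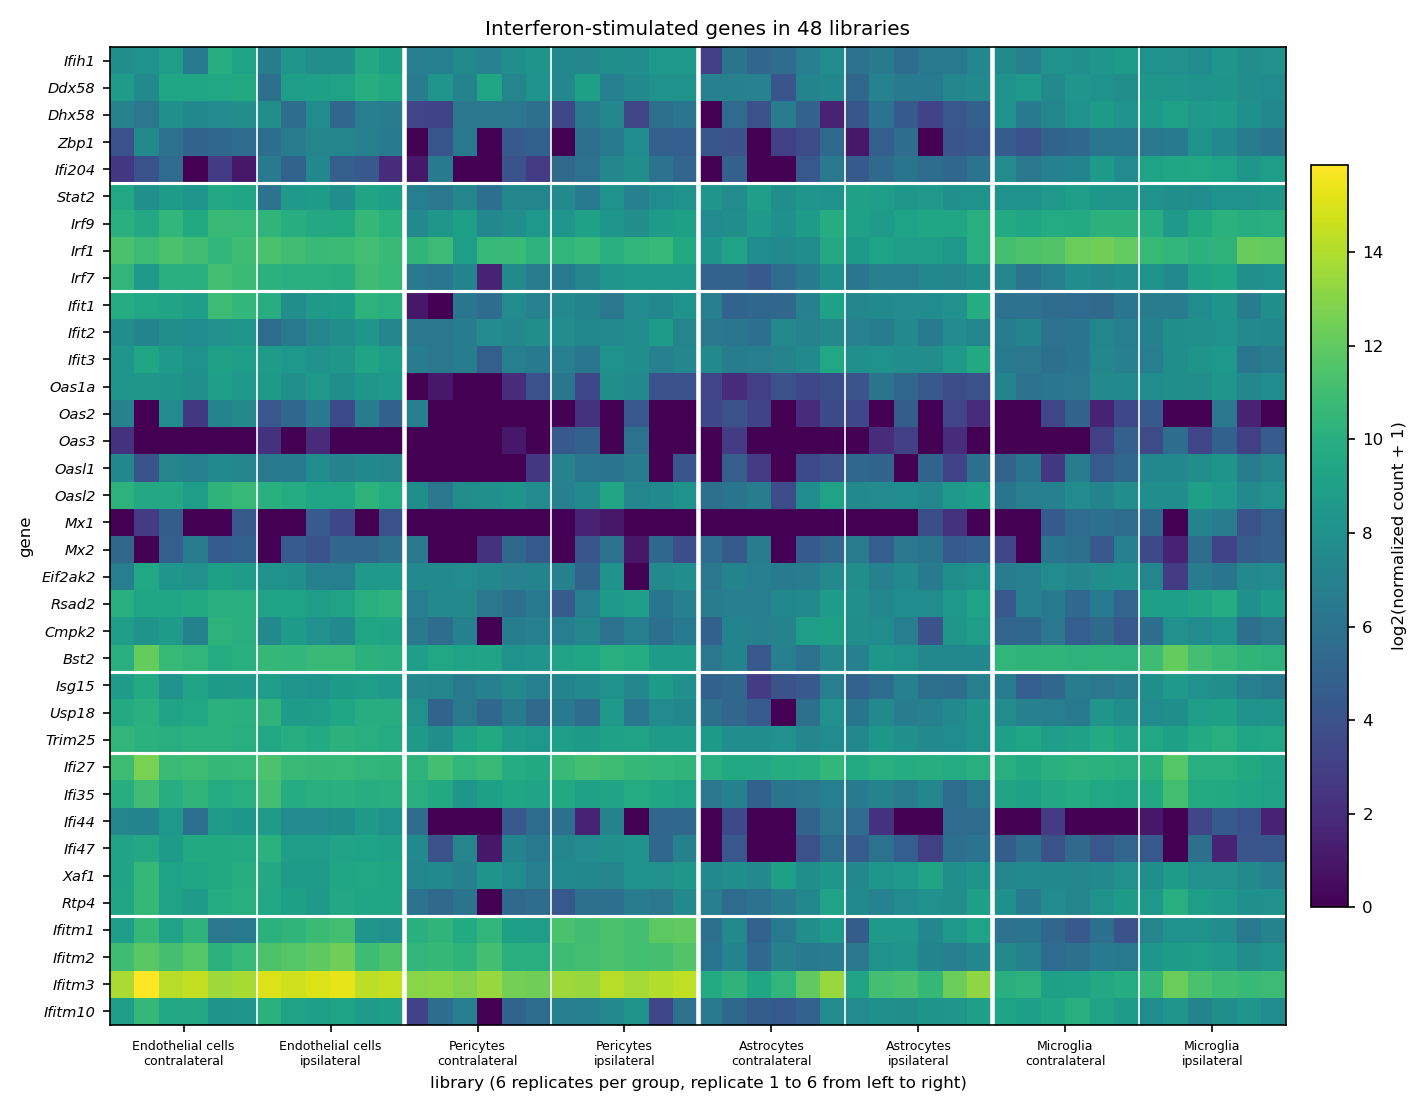
Heat map of log2(normalized count + 1) for the 36 ISGs (rows, ordered by role from sensors at the top to the IFITM family at the bottom) in the 48 libraries (columns, replicates 1 to 6 of each of the 8 groups). The EC columns are the brightest for most rows, *Ifitm3* is the brightest row with up to 59871 normalized counts, and *Mx1* and *Oas3* are dark in nearly all libraries.

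In the contralateral hemisphere the median of the 6 libraries was highest in EC for 28 of the 36 genes, in MG for 7, in PC for 1 and in AC for 0. In a joint limma fit of all libraries, a gene was called highest in a cell type when it was at least 1.5-fold above each of the other 3, with an adjusted p of at most 0.05 each time. By this rule 15 of the 35 ISGs tested (all but *Oas3*) were highest in EC, against 5.50% of the 15003 genes tested, and 2 were highest in MG, against 9.68%. None was highest in PC or AC, where 6.28% and 14.4% of all genes were. For the other 18 ISGs tested (51.4%) no cell type was called highest. In replicates 5 and 6 alone, with the least microglial RNA in the other cells, 15 ISGs were called highest in EC (4.95% of all genes), but these held only 9 of the 15 genes. *Ifi27*, *Ifit3*, *Ifitm3*, *Isg15*, *Oas1a* and *Trim25* were not called there. In the bulk RNA of sorted cells, fewer cells expressing a gene and less RNA of it per cell cannot be told apart.

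**Figure D2:**
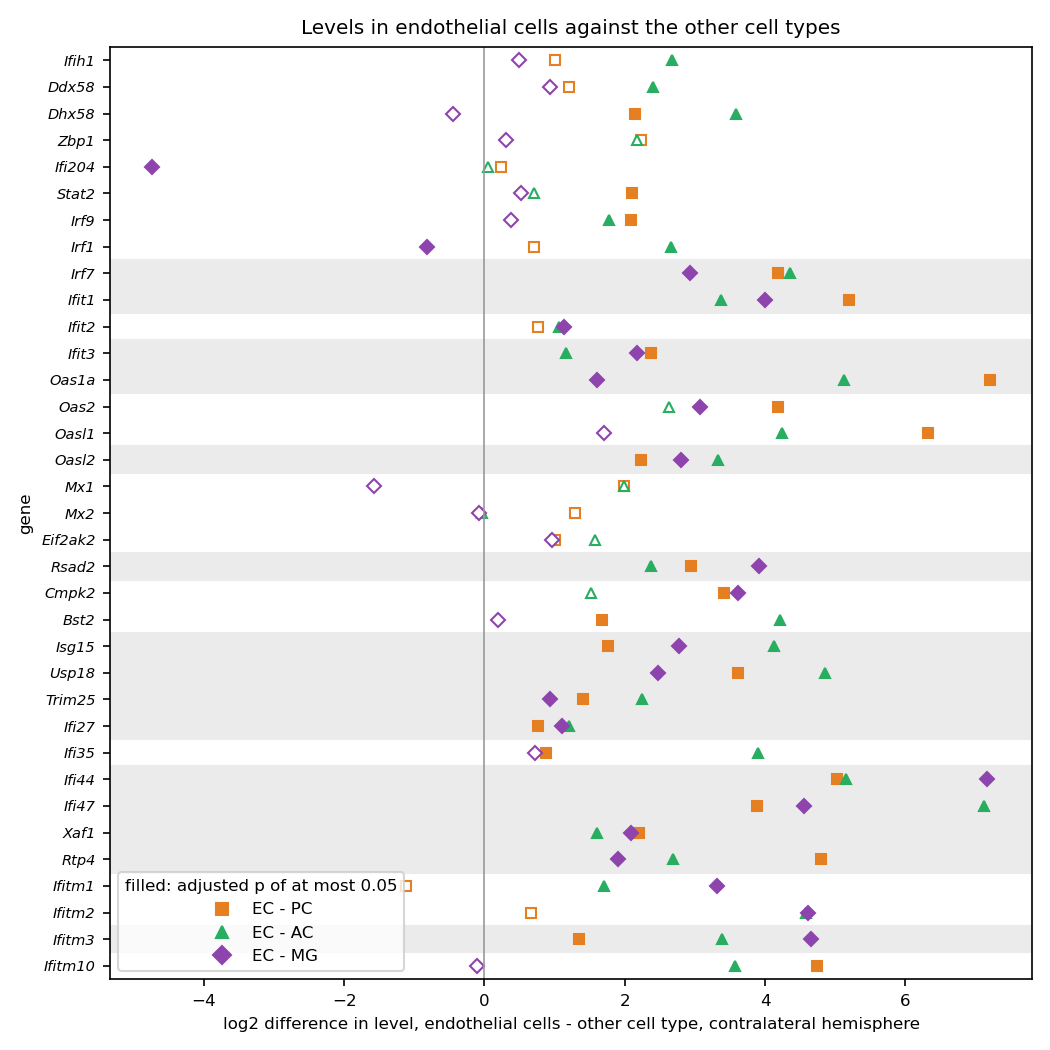
Log2 difference in contralateral level between EC and PC (squares), AC (triangles) and MG (diamonds) for the 35 ISGs tested; filled symbols have an adjusted p of at most 0.05 and grey bands mark the 15 genes called highest in EC. In the banded rows every symbol lies to the right of 0, from 0.77 for *Ifi27* upwards, while *Ifi204* lies at -4.74 against MG.

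Among the genes highest in EC, the largest margins were those of *Ifi44*, *Ifi47*, *Ifit1*, *Irf7* and *Usp18*. *Ifi44*, an interferon-induced gene of the GTPase-like IFI44 family, ranged from 55 to 428 normalized counts (median 243) in contralateral EC. It was at 0 in 5 of the 6 contralateral MG libraries and ranged from 0 to 51 in PC and from 0 to 79 in AC, so its smallest log2 difference, 5.03 against PC, rests on values near the floor. *Ifi47*, a GTPase of the immunity-related family, ranged from 445 to 822 (median 784.5) in EC and reached at most 182 in PC, 47 in AC and 51 in MG, with a smallest log2 difference of 3.89. *Ifit1*, which binds foreign RNA caps, ranged from 462 to 1882 (median 807) in EC, against medians of 61.5 in PC, 74.5 in AC and 54.5 in MG. The ranges of EC and AC overlapped, because 1 astrocyte library reached 541, and the smallest log2 difference was 3.38. *Irf7*, the factor that amplifies the interferon response, ranged from 377 to 2116 (median 1197.5) in EC and was at most 249 in any contralateral library of the other types, with a smallest log2 difference of 2.93. *Usp18*, which removes ISG15 from proteins and dampens IFNAR signalling, ranged from 628 to 1110 (median 946.5) in EC and reached at most 305 elsewhere, with a smallest log2 difference of 2.47.

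The other 10 genes called highest in EC were *Rsad2*, *Oasl2*, *Rtp4*, *Isg15*, *Oas1a*, *Xaf1*, *Ifitm3*, *Ifit3*, *Trim25* and *Ifi27*, with smallest log2 differences between 0.77 and 2.37. *Isg15*, the ubiquitin-like modifier, had a median of 419.5 in EC, 141.5 in PC, 89.5 in MG and 25.5 in AC. *Ifitm3*, which blocks the fusion of viral and host membranes, was the most abundant of the 36 genes in contralateral EC, PC and AC. Per kilobase of exon its contralateral medians were 24271 in EC, 11883 in PC, 1952 in AC and 1240 in MG, where *Bst2* was higher at 1406, and in EC the next gene on this scale, its neighbour *Ifitm2*, was at 3249. Its highest EC value, 59871, came from replicate 2, the library with excess short transcripts. *Ifitm3* was not called highest in EC without replicate 2, 3 or 4, nor in replicates 5 and 6 alone. *Oas1a* lost this call without any 1 of replicates 1 to 5 and in 9 of 15 alternatives in all, *Ifi27* without replicate 1, 3, 5 or 6, *Ifit3* without replicate 2, 3 or 5, and *Rtp4* without replicate 2.

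The 2 genes highest in MG were *Ifi204* and *Irf1*. *Ifi204*, a sensor of DNA, ranged from 81 to 384 (median 169.5) in contralateral MG, while the medians were 5.5 in EC, 3.5 in PC and 10 in AC. Its smallest log2 difference was 4.74. *Irf1*, a transcription factor that also answers to interferon gamma, ranged from 2327 to 5490 (median 3661.5) in MG and from 1481 to 2558 in EC. The 2 ranges overlapped at their ends, and the log2 difference of 0.82 from EC was not called without replicate 2, 4, 5 or 6. *Bst2*, the tetherin that holds virions at the cell surface, was at similar medians in MG (1270) and EC (1249.5).

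Calls of a stroke change were most numerous in MG. A gene was called changed within a cell type when limma gave an adjusted p of at most 0.05, the change was at least 1.5-fold, and all 6 libraries of 1 hemisphere exceeded 10 normalized counts. In MG, 12 of the 35 ISGs tested were higher in the ipsilateral hemisphere, where 4.29% of the 13300 genes tested were, and 1 was lower, where 6.27% were. In PC 2 of 34 were higher (0.441% of all genes), in AC 1 of 33 was higher (0.334%), and in EC 0 of 34 were called in either direction (0.491%), with 1 of 34 at an unadjusted p under 0.05, where 11.9% of all genes were. The median log2 change of the ISGs tested was 0.93 in MG, 0.70 in PC, 0.77 in AC and -0.19 in EC, beside medians over all genes of -0.18, -0.04, -0.06 and -0.03. The change was above 0 for 27 of 35 genes in MG, 31 of 34 in PC, 29 of 33 in AC and 10 of 34 in EC. The median standard error in this fit, which left the pairing of hemispheres unused, was 0.36 in MG and EC and 0.54 in PC and AC.

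**Figure D3:**
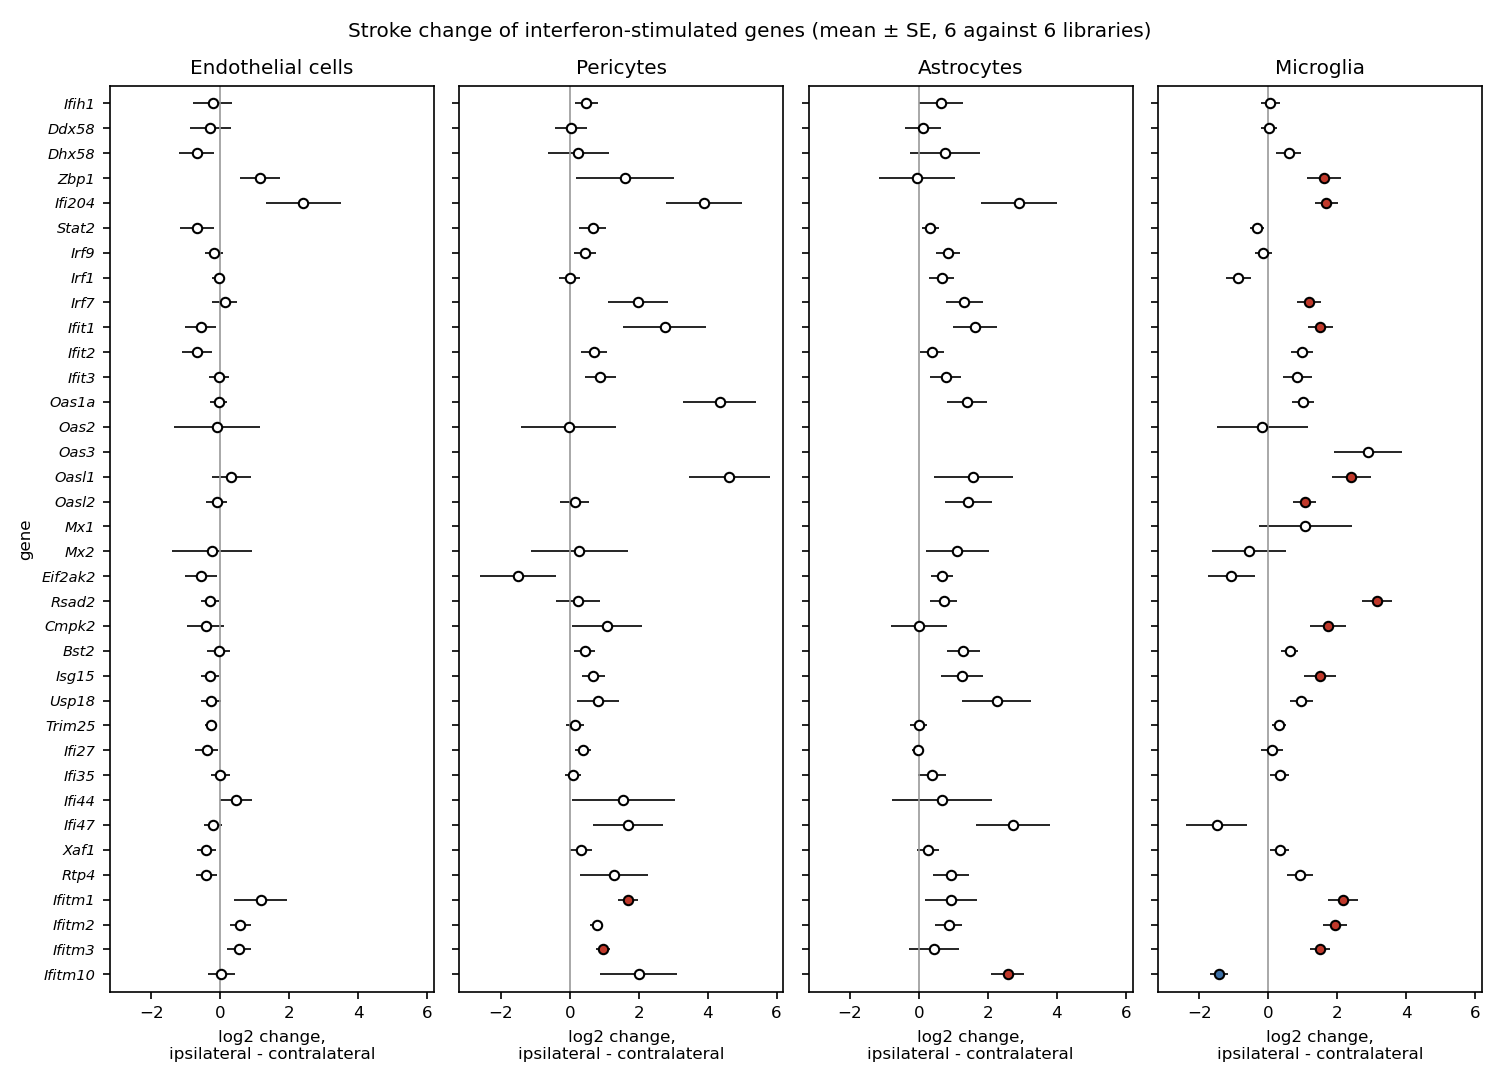
Log2 change between hemispheres (ipsilateral minus contralateral, mean ± SE, 6 against 6 libraries) of each ISG in the 4 cell types; filled points were called, red for higher and blue for lower, and genes with a mean under 10 have no point. The MG panel holds 13 filled points, from -1.43 for *Ifitm10* to 3.15 for *Rsad2*. In PC and AC most points lie to the right of 0 but with wide bars, and in EC they lie around 0. The bars come from the fit that left the pairing of hemispheres unused.

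With the replicate number as a block, so that hemispheres of the same animals were compared, the calls were 10 higher and 2 lower in MG (4.54% and 6.50% of all genes), 0 in PC (0.684% higher), 2 in AC (1.25% higher) and 0 in EC (0.551% in either direction). At an unadjusted p under 0.05 the block gave 10 of 34 ISGs in PC and 4 of 34 in EC, beside 18.5% and 13.6% of all genes. In AC the SE of *Ifit1* was 0.64 without and 0.34 with the block, that of *Ifitm3* 0.72 and 0.26, and that of *Oas1a* 0.57 and 0.65. The values with the block are given below for each gene whose call it changed.

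Among the antiviral effectors, the change in MG was largest for *Rsad2*, which encodes viperin, an enzyme that makes a chain-terminating nucleotide. It ranged from 19 to 117 normalized counts (median 64.5) in contralateral MG and from 251 to 883 (median 502) in ipsilateral MG. All ipsilateral libraries lay above all contralateral ones, and the log2 change was 3.15 ± 0.44 (SE), with an adjusted p of 0.000638 by limma. Its neighbour *Cmpk2*, a mitochondrial nucleotide kinase, ranged from 20 to 77 (median 37) and from 52 to 284 (median 138). The ranges overlapped although every pair rose, with a log2 change of 1.72 ± 0.52 (adjusted p 0.0442, limma). *Oasl1*, an OAS-like protein known to restrain the translation of IRF7, ranged from 5 to 100 (median 35) and from 101 to 298 (median 168.5), and the groups were apart by 1 normalized count. The log2 change of *Oasl1* was 2.41 ± 0.57 (adjusted p 0.0154).

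*Oasl2*, the neighbouring OAS-like gene, ranged from 70 to 217 (median 132.5) in contralateral and from 186 to 497 (median 252) in ipsilateral MG. It was higher in 6 of 6 pairs with overlapping ranges, and its log2 change was 1.06 ± 0.33 (adjusted p 0.049, limma). *Ifit1* ranged from 44 to 75 (median 54.5) and from 100 to 290 (median 156.5), without overlap. That is a log2 change of 1.51 ± 0.36 (adjusted p 0.0156, limma). The other members of these families were not called: *Ifit2*, higher in 6 of 6 pairs, had a log2 change of 0.97 ± 0.32 (adjusted p 0.0589), *Ifit3* of 0.84 ± 0.42, and *Oas1a* of 1.01 ± 0.33 (adjusted p 0.0629).

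*Isg15* ranged from 26 to 106 (median 89.5) in contralateral MG and from 84 to 380 (median 231) in ipsilateral MG. The ranges overlapped and 1 of the 6 pairs fell. Its log2 change of 1.51 ± 0.46 was called without the block (adjusted p 0.0457, limma) and not with it (0.0825). *Usp18* was not called, with a log2 change of 0.96 ± 0.34 (adjusted p 0.081), and *Trim25*, a ligase that attaches ISG15 and activates RIG-I, changed by 0.31 ± 0.21 on the log2 scale.

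Of the transcription factors, *Irf7* was called higher. It ranged from 69 to 218 (median 162) in contralateral and from 194 to 673 (median 278.5) in ipsilateral MG, higher in 6 of 6 pairs with overlapping ranges. The change was 2.27-fold, with an SE of 0.36 on the log2 scale (adjusted p 0.0491, limma). *Irf1* was lower in 6 of 6 pairs, at 2327 to 5490 in contralateral and 1136 to 4653 in ipsilateral MG. The 4 ipsilateral libraries of replicates 1 to 4 lay between 1136 and 1556, below all contralateral ones, while those of replicates 5 and 6 were at 4653 and 4183. The log2 change of -0.87 ± 0.36 was called only with the block (adjusted p 0.0469, against 0.132 without it; limma). The ISGF3 subunits *Stat2* and *Irf9* were not called in any cell type, with log2 changes in MG of -0.32 ± 0.20 and -0.15 ± 0.25.

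Of the sensors, *Ifi204* ranged from 81 to 384 (median 169.5) in contralateral MG and from 343 to 722 (median 589.5) in ipsilateral MG. Its ranges overlapped through replicate 5, the pair that did not rise, and its log2 change was 1.68 ± 0.33 (adjusted p 0.00518, limma). *Zbp1*, a sensor of Z-form nucleic acid that can start necroptosis, ranged from 15 to 75 (median 37.5) and from 68 to 289 (median 95). Its log2 change of 1.62 ± 0.49 was called without the block (adjusted p 0.046, limma) and not with it (0.0587). The RNA sensors *Ifih1* (MDA5), *Ddx58* (RIG-I) and *Dhx58* (LGP2) were not called, with log2 changes of 0.06 ± 0.28, 0.03 ± 0.23 and 0.59 ± 0.37.

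Of the IFITM genes, which encode small membrane proteins, 3 were higher and 1 was lower. *Ifitm1* ranged from 16 to 67 (median 47) in contralateral and from 86 to 277 (median 185.5) in ipsilateral MG, with a log2 change of 2.17 ± 0.44 (adjusted p 0.00656, limma). *Ifitm2* ranged from 45 to 180 (median 88) and from 231 to 450 (median 345.5), with a log2 change of 1.93 ± 0.34 (adjusted p 0.00287). *Ifitm3* ranged from 512 to 1205 (median 841) and from 1519 to 5069 (median 1903), with a log2 change of 1.49 ± 0.29 (adjusted p 0.00549). In all 3 the hemispheres were fully apart in MG. The highest ipsilateral value of *Ifitm3*, 5069, came from replicate 2, the library with excess short transcripts; without that library its log2 change was 1.25 and still called. *Ifitm10*, grouped with this family by name, went the other way: it ranged from 409 to 1031 (median 608) in contralateral and from 140 to 309 (median 221.5) in ipsilateral MG, lower in 6 of 6 pairs without overlap. Its log2 change was -1.43 ± 0.26 (adjusted p 0.00313, limma).

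**Figure D4:**
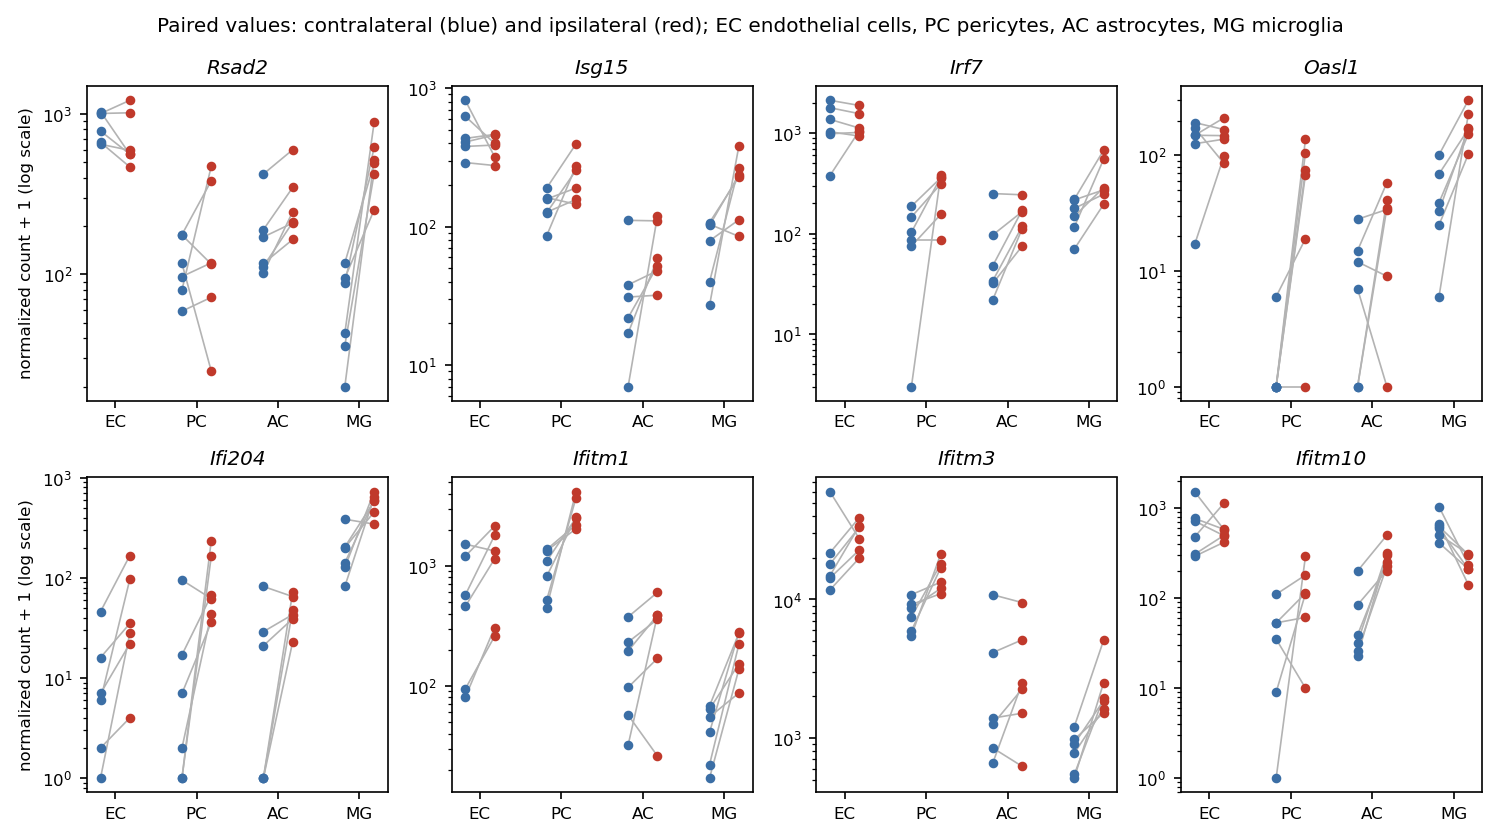
Normalized counts + 1 on a log scale for 8 ISGs, with contralateral libraries in blue, ipsilateral ones in red and lines joining hemispheres of the same pool, in EC, PC, AC and MG. *Rsad2*, *Oasl1*, *Ifitm1* and *Ifitm3* rise along every line in MG, *Ifitm10* falls along every line in MG and rises along every line in AC, and for *Isg15* and *Irf7* the EC points stay the highest in both hemispheres at the median.

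RNA of other cells also differed between the hemispheres of MG. The sum of 6 monocyte markers (*Ly6c2*, *Ccr2*, *Plac8*, *Chil3*, *Vcan* and *F13a1*, all found) ranged from 263 to 1347 in contralateral and from 1532 to 4146 in ipsilateral MG. The sum of 8 neutrophil markers, to which *Csf3r* contributes in MG of both hemispheres, ranged from 6337 to 7957 and from 4298 to 19478. Its median was 7207 in contralateral and 5016 in ipsilateral MG, and it was higher ipsilaterally only in replicate 2. *Ly6g* was at 0 in all contralateral libraries. The sum of 10 microglial markers ranged from 744023 to 868835 and fell to between 405263 and 727554. The part of these in the ISG changes was not tested. Without ipsilateral MG replicate 2, with the most neutrophil RNA, 12 ISGs were called instead of 13. Over all genes, 10.6% were called with all libraries and 15.1% without that one. Leaving out replicates 1, 3, 4 or 5 gave 7, 7, 7 and 8 calls (6.29%, 4.19%, 4.8% and 7.73% of all genes). Leaving out only ipsilateral MG replicate 3, the shallowest library, gave 8 (6.88%). *Ifitm1* and *Ifitm2* were called under all 18 alternatives run. The calls of *Cmpk2* (12 of 18 alternatives), *Irf7* and *Oasl2* (11 each), *Isg15* (10) and *Zbp1* (11) were lost in most of them, and those of *Ifit1* and *Oasl1* in 4 each.

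In PC, the called genes were *Ifitm1* and *Ifitm3*. *Ifitm1* ranged from 448 to 1367 (median 956) in contralateral and from 2033 to 4134 (median 2520.5) in ipsilateral PC, without overlap. Its log2 change was 1.69 ± 0.30 (adjusted p 0.0188, limma), and with the block the adjusted p was 0.0505. *Ifitm3* ranged from 5487 to 10832 (median 8056.5) and from 11008 to 21258 (median 15138), also without overlap and with every pair rising. Its log2 change was 0.96 ± 0.21 (adjusted p 0.0447, and 0.0876 with the block). *Ifitm2* had a log2 change of 0.78 ± 0.20 and was not called (adjusted p 0.0804).

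*Oas1a*, a sensor that makes the activator of RNase L, and *Oasl1* were nearly absent from contralateral PC. *Oas1a* was at 0 to 15 there and at 10 to 228 in ipsilateral PC, with an adjusted p of 0.0703 by limma. *Oasl1* was at 0 in 5 libraries and at 5 in the other, against 0 to 137 ipsilaterally (adjusted p 0.0806). *Ifi204* was at 0 to 94 and 35 to 234 (adjusted p 0.106). Ipsilateral PC replicates 3 and 4 held the highest values of *Oas1a* (228 and 190) and also the most microglial marker RNA, while in replicates 5 and 6, almost free of it, ipsilateral *Oas1a* was 15 and 15 and *Oasl1* was 0 and 18. The part of microglial RNA in these values was not tested. The highest ipsilateral values in PC of *Ifitm1* and *Ifitm3*, 4134 and 21258, were those of replicate 6. That library also held the highest sum of the 4 endothelial markers, 6219, against 1263 to 2159 in the other ipsilateral PC libraries. In ipsilateral EC replicate 6 that sum was 74902, with *Ifitm1* at 257 and *Ifitm3* at 22762. In PC replicates 5 and 6, *Ifitm1* went from 517 to 3675 and from 448 to 4134. There *Ifitm3* went from 5932 to 16948 and from 5487 to 21258. The part of endothelial RNA in these values was not tested. The sum of the 10 microglial markers (all found, none at 0 throughout) ranged from 596 to 46262 in contralateral and from 706 to 107546 in ipsilateral PC. The 8 neutrophil markers summed to 0 to 1566 (median 30, *Ly6g* and *Camp* at 0 in all 6) and 29 to 13452 (median 2875.5), and the 6 monocyte markers to 5 to 870 (median 23) and 15 to 9211 (median 1426.5). The part of these in the PC changes was not tested. Without ipsilateral PC replicates 3 and 4 no ISG was called in PC, with 0.111% of all genes called. Leaving out replicate 3, 4 or 6 of both hemispheres also gave 0 (0.155%, 0.0809% and 0.103% of all genes).

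In AC, *Ifitm10* rose where it fell in MG. It ranged from 22 to 199 (median 34.5) in contralateral and from 201 to 498 (median 277.5) in ipsilateral AC, apart by 2 normalized counts and higher in 6 of 6 pairs. Its log2 change was 2.57 ± 0.49 (adjusted p 0.0426, and 0.00852 with the block; limma). *Ifit1* was called only with the block: it ranged from 33 to 541 (median 74.5) and from 161 to 891 (median 208.5), overlapping but higher in every pair. The log2 change was 1.62, with adjusted p-values of 0.0421 with the block and 0.471 without it. In AC the sum of the 8 neutrophil markers ranged from 36 to 1416 in contralateral and from 238 to 5357 in ipsilateral libraries, and that of the 6 monocyte markers from 41 to 1114 and from 345 to 2395. Both were higher in 6 of 6 pairs, with no marker at 0 throughout, and the microglial sum ranged from 2803 to 53200 and from 1971 to 43592. Their part in the AC changes was not tested. Leaving out any of replicates 1 to 5 removed the call of *Ifitm10* without the block. At an unadjusted p under 0.05 there were 10 of 33 ISGs without and 16 with the block, beside 9.28% and 17.6% of all genes.

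In EC, no ISG was called under any alternative run. *Isg15* ranged from 289 to 815 (median 419.5) in contralateral and from 275 to 462 (median 392.5) in ipsilateral EC, a log2 change of -0.30 ± 0.27. *Irf7* changed by 0.12 ± 0.36, *Rsad2* by -0.29 ± 0.26 and *Usp18* by -0.28 ± 0.29 on the log2 scale. *Ifitm3* ranged from 11726 to 59871 (median 16455.5) and from 19908 to 38993 (median 30333) and rose in 5 of 6 pairs, with a log2 change of 0.54 ± 0.36 (adjusted p 0.602, limma). Without contralateral EC replicate 2, where it was 59871, the change was 0.86 with an adjusted p of 0.0747, and the share of all genes called in EC rose to 1.70%. *Ifi204* was higher in 6 of 6 pairs, at 0 to 45 and 3 to 166, with an adjusted p of 0.387. The 8 neutrophil markers summed to medians of 362 in contralateral and 2207 in ipsilateral EC, and the 6 monocyte markers to 377 and 1548. The sum of the 10 microglial markers ranged from 1420 to 62456 and from 1384 to 87980. Their part in the EC changes was not tested.

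Whether the stroke change itself differed between cell types was tested by an F test in the joint fit. It passed for 2 of the 35 ISGs, *Rsad2* and *Oas1a*, against 0.660% of all genes. The change of *Rsad2* was smaller in EC than in MG, with a difference in log2 change of -3.43 ± 0.67 (adjusted p 0.0107, limma), and smaller in PC than in MG (-2.91 ± 0.67, 0.022). The difference of AC from MG, -2.42 ± 0.67, was not called (0.135). For *Oas1a* the change was smaller in EC than in PC (-4.41 ± 0.86, adjusted p 0.0246) and larger in PC than in MG (3.34 ± 0.86, 0.0478). Both differences rest on the values near 0 in contralateral PC. With the block, *Oas1a* missed the threshold (adjusted p 0.0848) and *Irf1* passed it (0.0433). Leaving out replicate 1, 3 or 4 left 0 ISGs (0.532%, 0.0931% and 0.146% of all genes). Leaving out replicate 5 or 6 left 1 (0.34% and 0.334%). For *Ifitm10* the difference of 4.00 ± 0.97 between AC and MG had an adjusted p of 0.0529, and its F test had one of 0.0639. *Ifi47* and *Ifit2* followed, with adjusted p-values of 0.252 and 0.302 in the F test. No other ISG passed the F test.

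After stroke, fewer ISGs stood out in EC. In the ipsilateral hemisphere 4 of 35 genes, *Ifi44*, *Irf7*, *Oasl2* and *Xaf1*, were called highest in EC, against 4.40% of all genes, and all 4 were also among the 15 of the contralateral hemisphere. The EC median was still the highest of the 4 cell types for 26 of 36 genes. *Rsad2*, with ipsilateral medians of 576 in EC and 502 in MG, was no longer called highest in EC. The change in this count between hemispheres was not tested.

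**Figure D5:**
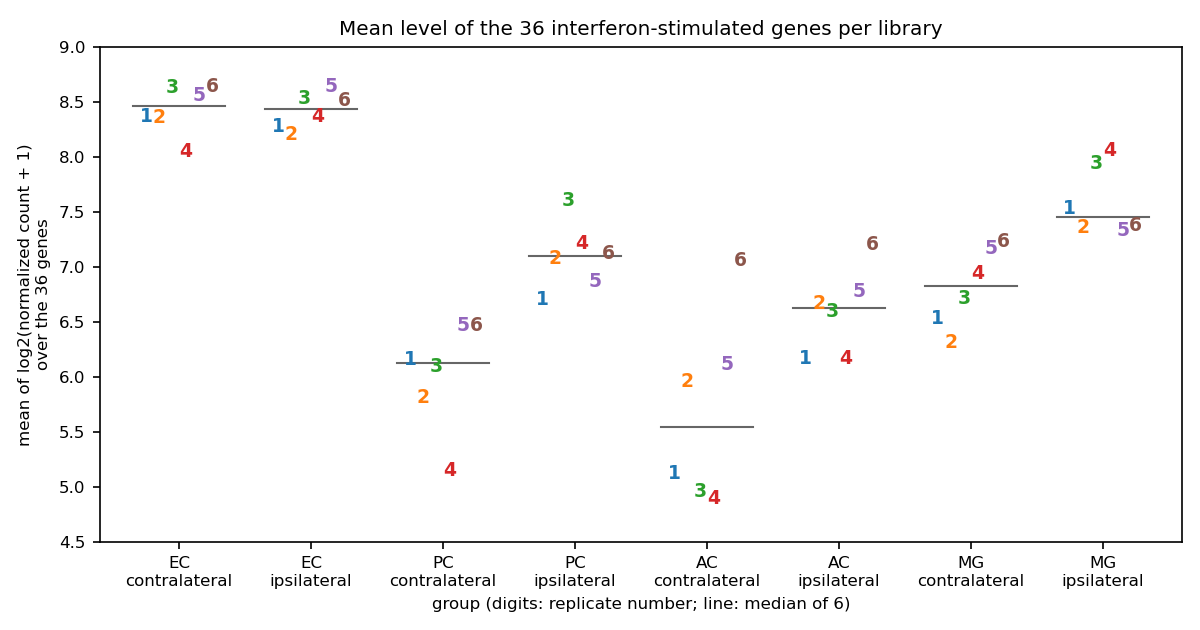
Mean of log2(normalized count + 1) over the 36 ISGs in each library (digits give the replicate number) with the median of each group as a line. The mean lies between 8.05 and 8.64 in EC of both hemispheres together, moves from a median of 6.82 to 7.46 in MG, from 6.12 to 7.10 in PC and from 5.54 to 6.63 in AC, and replicate 6 is the highest AC library in both hemispheres.

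By replicate number, libraries differed most in AC. A replicate number stands for a pool of animals and for any handling its libraries shared, and these cannot be told apart. An F test over the 6 replicate numbers, with hemisphere as a term, passed for 6 of 33 ISGs in AC, or 18.2% (13.7% of all genes), 1 of 34 in EC (0.317%), 0 of 34 in PC (0.294%) and 0 of 35 in MG (0.00752%). At an unadjusted p under 0.05 there were 15, 6, 3 and 3, beside 31%, 8.03%, 13.2% and 8.11% of all genes. The 6 genes in AC were *Ifitm3*, *Ifit3*, *Ifit1*, *Irf1*, *Rsad2* and *Rtp4*. In replicate 6 *Ifit1* was at 541 in contralateral and 891 in ipsilateral AC, where the other libraries were at 33 to 126 and 161 to 264. That replicate held the highest value of its group for 24 of the 36 genes in contralateral and 19 in ipsilateral AC, and without it 0 ISGs were called, with 2.51% of all genes. Without replicate 5 the count was 3 (7.14% of all genes) and without replicate 3 it was 11 (21%), so the count moved with that over all genes. The sum of 4 oligodendrocyte markers was lowest in replicate 6 in both hemispheres, at 31112 and 59775 against up to 283903 and 350941, and its part in the result was not tested. The endothelial marker sum of replicate 6 was 960 in contralateral and 973 in ipsilateral AC, where the libraries ranged from 157 to 1318 and from 122 to 1577. The part of endothelial RNA in the result was not tested either. The gene in EC was *Ifitm1* (adjusted p 0.0444, limma), at 79 and 93 in replicates 5 and 6 and at 457 to 1513 in the other contralateral libraries. It was not called without replicate 1, 3, 4, 5 or 6.

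The wider pathway was followed with a list of 83 genes, of which 74 were in the table. Of the genes tested, 0 of 65 in EC (0.491% of all genes), 1 of 64 in PC (0.441% higher) and 0 of 62 in AC (0.334% higher) were called, while in MG 2 of 66 were higher and 8 lower, beside 4.29% and 6.27% of all genes. Of 11 interferon genes listed, 3 were in the table and the other 8 were not analysed here. *Ifnb1* was at most 63 in contralateral MG, its highest group, and at most 36 in ipsilateral MG, and *Ifng* was at 0 in all EC, PC and MG libraries. Among receptors and sensors, *Ifngr1*, a chain of the interferon gamma receptor, fell from a median of 17921 to 10279 in MG (log2 change -0.87 ± 0.16, adjusted p 0.00394, limma), without overlap. *Tmem173*, which encodes the DNA pathway adaptor STING, fell in MG from a median of 7184 to 3730.5 (log2 change -0.96 ± 0.19, adjusted p 0.00619). In EC it was higher in 6 of 6 pairs, with medians of 496.5 and 1279, and was called only with the block (adjusted p 0.0369, against 0.0803 without it). The part of microglial, monocyte and neutrophil RNA in this rise was not tested. *Tlr7*, a sensor of single-stranded RNA, fell in MG by 0.72 on the log2 scale (limma, adjusted p 0.0392, and 0.0607 with the block). The sum of the 10 microglial markers fell in MG as well, from a median of 820800 to 583126.5. The part of this fall and of monocyte RNA in the changes of list genes in MG was not tested.

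Among regulators, *Irf2*, which competes with IRF1, fell in MG by 0.93 on the log2 scale (adjusted p 0.00916, limma), and *Pias1*, a SUMO ligase that restrains the pathway, fell by 0.67 (0.0175). *Ptpn2*, a phosphatase that acts on JAK kinases, rose in PC from a median of 470 to 905, a log2 change of 0.90 ± 0.18 (adjusted p 0.032). Among further ISGs, *Slfn2* rose in MG from a median of 1297 to 4232 (2.84-fold, SE 0.20 on the log2 scale, adjusted p 0.000479). *Cxcl10*, a chemokine for T cells, rose from 1287.5 to 2250.5 (0.98 ± 0.30, adjusted p 0.0482, and 0.0708 with the block). *Uba7*, the enzyme that activates ISG15, fell by 1.38 on the log2 scale (adjusted p 0.00853), and of the interferon gamma targets *Gbp7* and *Irgm2* fell by 0.90 and 1.16 (0.0215 and 0.0066). Only with the block were *Slfn2*, *Igtp*, *Irgm1* and *Tap1* higher in AC (adjusted p between 0.00997 and 0.0373) and *Psmb8* higher in PC (0.0359). In the contralateral hemisphere 7 of the 67 list genes tested were highest in EC (5.50% of all genes), among them *Ifnar1*, *Iigp1* and *Gbp4*. A further 15 were highest in MG (9.68%), among them *Irf5*, *Irf8*, *Tlr7*, *Tlr9* and *Cxcl10*, and 1, *Pias1*, in PC (6.28%). Of the further ISGs on the list, 3 were highest in EC, 3 in MG and 17 in no cell type. Of the interferon gamma targets, 2 were highest in EC and 13 in no cell type.

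The remaining ISGs were not called in any cell type. Among them *Bst2*, *Ifi27*, *Ifi35*, *Xaf1*, *Trim25* and *Rtp4* were measured in all MG libraries, and their log2 changes there lay between 0.11 and 0.93. *Eif2ak2*, the kinase PKR, changed by -1.07 ± 0.67 in MG. Several genes were low: *Mx1*, which common laboratory strains carry in a disabled form, was at 0 in all contralateral PC and AC libraries and at most 142 anywhere, with medians of 33.5 and 32.5 in contralateral and ipsilateral MG, *Oas3* was at most 62, *Oas2* was at most 112 outside EC, and *Mx2*, listed as a polymorphic pseudogene, was at most 126. *Oas3* and *Mx1* were too low for testing in EC, PC and AC, *Oas2* in AC and *Ifi44* in MG.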

How the data were processed

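Bulk RNA-seq was measured in 48 libraries of sorted cells. Per the methods and processing notes, the authors trimmed reads with Trimmomatic 0.38, aligned them to mm10 (GRCm38) with STAR 2.6.1d, counted unique reads per gene with featureCounts 1.6.3 and normalized with DESeq2 1.18.1. The deposited values are DESeq2-normalized counts rounded to whole numbers, treated as a score and not as raw counts. At least 5000000 reads per library lay on genes, and 1 read was worth at most 2.36 normalized counts.

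Values were taken as log2(normalized count + 1). Genes with a mean of at least 10 were fitted with limma 3.58.1 (R 4.3.3; lmFit, eBayes with trend, two-sided, Benjamini-Hochberg over all genes tested), within each cell type for hemispheres and pools and over all 48 libraries for levels and for differences in stroke change. The call rule (adjusted p at most 0.05, a 1.5-fold change, and each of the 6 libraries of a hemisphere above 10) follows the study. Replicates are pools of animals. Same-numbered hemispheres come from the same pools, and deviations of same-numbered libraries correlated at a mean of 0.23 in EC, 0.23 in PC, 0.38 in AC and 0.14 in MG (different numbers, -0.04, -0.04, -0.08 and -0.03).

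The members, the pathway lists and the markers were chosen with earlier results of these data known. Named with values are members called with or without the block, up to 5 per cell type with the largest margin in level, up to 5 by the F test, and called pathway genes. Tested on simulated data with 200 changed genes, the hemisphere fit recovered 117 in EC, 134 in PC, 133 in AC and 158 in MG. It also called 5, 12, 4 and 7 other genes. Every changed gene had a log2 shift of the same size, larger than the change of most ISGs, and noise was independent between libraries. These figures therefore do not give the recovery of changes as small as those of most ISGs. Alternatives covered the pseudocount (0.1, 10), the filter (none, 50), the block, a joint fit, rescaling, the call rule, titles in place of column names, and subsets of replicates. Leaving out single doubtful libraries, replicates 5 and 6 alone and the ipsilateral levels were chosen after seeing the data. Promoters were read from RefSeq (GRCm38.p6). Python 3.11.15, numpy 2.4.6, pandas 2.3.3 and matplotlib 3.10.9 were used.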

Additional observations from a re-analysis of the deposited data

Results flagged for a closer look

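In 25 of 152 groups of 6 libraries (19 named genes in 8 groups each), 1 library lay far from the other 5 by Dixon's criterion, where chance flags about 1 in 20 groups. Contralateral AC replicate 6 accounted for 9 of them, with normalized counts of 541 for *Ifit1*, 110 for *Isg15*, 249 for *Irf7*, 563 for *Oasl2*, 421 for *Rsad2*, 260 for *Usp18*, 81 for *Ifi204*, 10808 for *Ifitm3* and 199 for *Ifitm10*. Each was the highest of its group. In ipsilateral AC, replicate 6 was apart for *Ifit1* at 891.

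In PC, the libraries apart were ipsilateral replicate 5 for *Ifit2* (439) and replicate 3 for *Oasl2* (631), and contralateral replicate 6 for *Oas1a* (15) and *Oasl1* (5), replicate 1 for *Usp18* (281), replicate 3 for *Zbp1* (85) and replicate 2 for *Ifi204* (94). In EC they were contralateral replicate 2 for *Zbp1* (189) and *Ifitm3* (59871), contralateral replicate 3 for *Ifi204* (45), and ipsilateral replicate 1 for *Ifi47* (1139) and *Ifitm10* (1130). In MG they were contralateral replicate 3 for *Ifi44* (6), ipsilateral replicate 3 for *Ifi47* (57) and ipsilateral replicate 2 for *Ifitm3* (5069).

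The stroke change differed between cell types by the F test of the joint limma fit for *Rsad2* (adjusted p 0.0133) and *Oas1a* (adjusted p 0.0169).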

How the results depend on the processing

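Of 665 values of single genes recomputed under alternatives, 493 kept direction and side of the threshold, 163 missed a threshold they had passed, 4 newly passed one and 5 changed sign. For stroke changes, the shares of all genes in brackets here count both directions. In MG the 13 called ISGs (10.6%) became 8 with a pseudocount of 0.1 (9.46%) and 8 without a filter (4.77%). They became 4 in the joint fit (5.51%), 8 without ipsilateral MG replicate 3 (6.88%) and 12 without ipsilateral MG replicate 2 (15.1%). With 1 replicate left out they became 7 to 11 (4.19% to 14.4%). In PC the 2 calls (1.02%) became 1 with a pseudocount of 0.1 (0.897%), 1 without a filter (0.388%) and 1 in replicates 1 to 4 (0.228%). They became 0 without ipsilateral replicates 3 and 4 (0.111%), and 0 to 2 with 1 replicate left out (0.0809% to 0.835%). The joint fit also gave 2 (1.92%), but *Ifitm1* and *Ifitm3* were not called there (adjusted p 0.178 and 0.324, limma). In AC the 1 call (0.341%) became 0 with a pseudocount of 0.1 (0.223%) and 0 in the joint fit (0.593%). It became 0 to 1 with 1 replicate left out (0.0787% to 0.399%). With the replicate block, which uses the pairing of hemispheres, the counts were 0 in PC (1.66%) and 2 in AC (1.59%). The block changed no stroke call of an ISG other than those given beside each gene. It gave 16 ISGs highest in EC (5.79% of all genes). Differences between replicate numbers were 10 instead of 6 in AC with a pseudocount of 10 (16.9% of all genes). They were 0 to 11 with 1 replicate left out (2.51% to 21%). In EC they were 0 instead of 1 with a pseudocount of 0.1 (0.264%), and 0 to 1 with 1 replicate left out (0.12% to 0.429%). The F test of the stroke change gave 1 instead of 2 in replicates 1 to 4 (0.315% of all genes). It gave 0 to 2 with 1 replicate left out (0.0931% to 0.601%). The 15 ISGs highest in EC were 4 in the ipsilateral hemisphere (4.4% of all genes). The 2 highest in MG were 1 without a filter (8.61%) and 1 in replicates 1 to 4 (6.86%). With 1 replicate left out there were 1 to 2 highest in MG (8.38% to 9.83%). With cell types from the sample titles, 17 ISGs were called in PC and 44.9% of all genes, and the log2 changes changed sign for *Ifitm1* (-2.27) and *Ifitm3* (-1.81) in PC and for *Ifi204* (-1.08) and *Zbp1* (-0.32) in MG. The log2 difference of *Ifi27* between EC and the next cell type was -0.02 in the ipsilateral hemisphere. The causes were not tested. Values up to 7.08 normalized counts can be 3 reads or fewer.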
